A study of Macaca fascicularis with 8 samples.

Results

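The 9 genes described here encode transcription factors that mark the primitive streak and the endoderm of the primate embryo: T (brachyury), EOMES, MIXL1, GSC and LHX1 for the streak and its organizer, and FOXA2, SOX17, GATA4 and GATA6 for endoderm. They were chosen by name, and each was matched to 1 row of the 33121 genes in the deposited expression table, GATA6 through the gene name in the table and the other 8 through the best protein match of the row. All 9 passed the filter of at least 1 RPKM in at least 4 libraries, and so were among the 15597 genes tested. RPKM is a read number scaled by gene length and by sequencing depth, so levels of different genes are given per length.

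RNA was sequenced from embryonic stem cells (ESCs) of the cynomolgus monkey, in 4 dome-shaped and 4 primed libraries, to compare expression between these states. Dome-shaped ESCs had been cultured in a medium called NHSMV, built on knockout DMEM with AlbuMAX I, N2, insulin, vitamin C, LIF, bFGF and TGF-β1. It also held PD0325901 (an inhibitor of MEK), CHIR99021 (an inhibitor of GSK3, which raises WNT signalling), SB202190 and SB203580 (inhibitors of p38) and SP600125 (an inhibitor of JNK). Primed ESCs had been cultured in CESM, which mixed the human stem cell medium PSGro with a conventional monkey ESC medium. The labels describe flat colonies with weak survival of single-cell passage for the primed state and dome colonies with strong survival for the other. Medium, colony shape and group coincide and cannot be told apart. The labels do not say whether the libraries of a group came from separate cultures, so p-values measure the spread between these libraries, which may be technical.

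At gastrulation, NODAL and WNT signals turn on the T-box factors T and EOMES in the primitive streak, the region through which epiblast cells leave to form mesoderm and endoderm. MIXL1, GSC and LHX1 are homeobox genes of the streak, and GSC and LHX1 mark its anterior end, the organizer. SOX17, FOXA2, GATA4 and GATA6 then act in cells that become endoderm, and GATA4 and GATA6 act earlier in the primitive endoderm of the blastocyst. In cultured ESCs, RNA of these genes is commonly read as a sign of cells that have begun to leave pluripotency.

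Depth implied by the step size of the RPKM values was 14400000 to 18080000 reads per library, and 15141 to 15830 genes reached 1 RPKM. SOX2 and LIN28A, markers of pluripotent cells, were abundant in every library. SOX2 stood at 219 to 322 RPKM in dome-shaped and 172 to 273 RPKM in primed libraries. LIN28A stood at 733 to 954 RPKM in dome-shaped and 964 to 1183 RPKM in primed libraries. Of 9 pluripotent markers tested, 5 were called lower in dome-shaped ESCs and 0 higher, with DPPA4, TDGF1, PRDM14 and ZFP42 among the lower. PRDM14 stood at 13.9 to 43.4 RPKM in dome-shaped and 52.9 to 80.7 RPKM in primed libraries. Over fits that left out 1 library, 1 to 6 of these markers were called lower. DPPA4 lost its call in 7 of these 8 fits, TDGF1 and PRDM14 in 6 each, and ZFP42 in 0. On the first principal component of all genes tested, which held 49.3% of the variance, dome-shaped replicate 4 scored 9.9, the other dome-shaped libraries 40.7 to 41.1, and the primed libraries -37.0 to -28.6. Dome-shaped replicate 4 therefore stood apart from its group, between the other dome-shaped and the primed libraries. Results are also given without this library where its absence matters.

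FOXA2 alone of the 9 factors was called different between the groups, at an adjusted p under 0.05 by limma. It was lower in dome-shaped ESCs. FOXA2 (ENSMMUG00000010410) is a forkhead factor that opens chromatin in endoderm, node, notochord and floor plate. It stood at 7.37, 4.54, 7.75 and 0.793 RPKM in dome-shaped replicates 1 to 4, against 30.4, 39.7, 23.0 and 26.9 RPKM in primed replicates 1 to 4. Every dome-shaped library lay below every primed library, and dome-shaped replicate 4 was far below the rest. The means were 5.12 ± 3.22 RPKM in dome-shaped and 30.04 ± 7.14 RPKM in primed libraries (SD, n = 4 each), a ratio of 0.170. On the log2(RPKM + 1) scale the difference, dome-shaped minus primed, was -2.55 (SE 0.45, 95% interval -3.58 to -1.53), with an adjusted p of 0.00901 by limma over all genes tested. The exact two-sided permutation p was 0.0286, the smallest that 4 against 4 libraries allow. Without dome-shaped replicate 4 the difference was -2.04 with an adjusted p of 0.00102 by limma. Because the RNA came from bulk cultures, fewer cells that express a gene and less RNA per cell cannot be told apart, here and for the genes below.

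**Figure D1:**
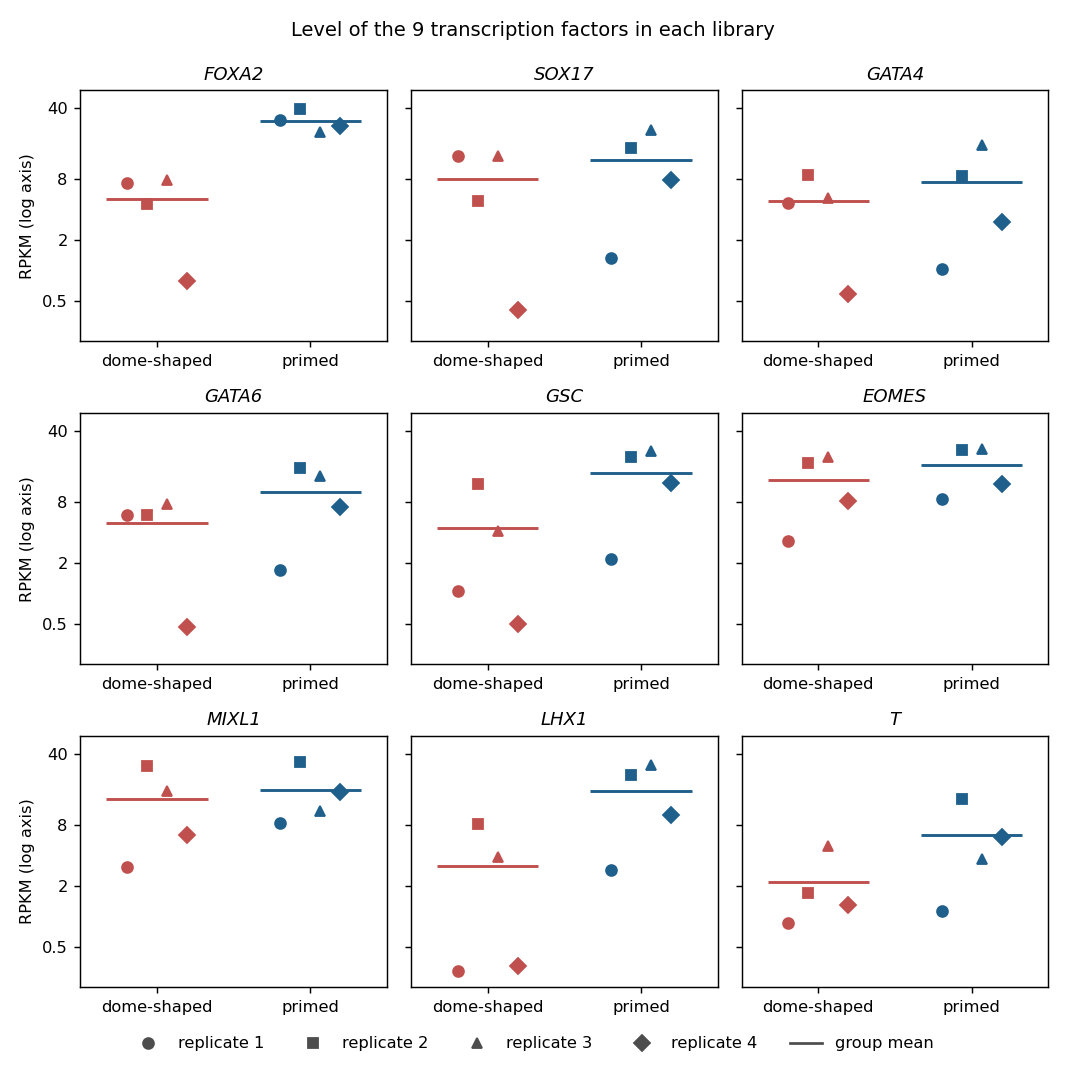
RPKM of each of the 9 factors (log axis) in the 4 dome-shaped libraries, in red on the left, and the 4 primed libraries, in blue on the right of each panel; marker shapes are the replicate numbers, which do not pair libraries, and the lines are group means. FOXA2 alone has groups apart, at 0.793 to 7.75 RPKM in dome-shaped and 23.0 to 39.7 RPKM in primed libraries.

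The other 3 endoderm factors spanned a wide range in each group and did not pass the test. SOX17 (ENSMMUG00000000326), an HMG-box factor of definitive endoderm that in primates also acts in germ cell precursors, stood at 13.5, 4.80, 13.5 and 0.409 RPKM in dome-shaped replicates 1 to 4, against 1.33, 16.2, 24.5 and 7.87 RPKM in primed replicates 1 to 4. The groups overlapped, with the lowest values in dome-shaped replicate 4 and primed replicate 1. The log2 difference of SOX17 was -0.60 (SE 0.89, 95% interval -2.59 to 1.40, adjusted p 0.681 by limma), and 0.13 without dome-shaped replicate 4.

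GATA4 (ENSMMUG00000019208), a zinc finger factor of primitive endoderm, foregut and heart, stood at 4.62, 8.81, 5.21 and 0.587 RPKM in dome-shaped replicates 1 to 4, against 1.02, 8.53, 17.5 and 2.97 RPKM in primed replicates 1 to 4. Dome-shaped replicates 1 to 3 thus lay between the lowest and the highest primed library. Its log2 difference was -0.35 (SE 0.73, 95% interval -1.99 to 1.30, adjusted p 0.780 by limma), and 0.19 without dome-shaped replicate 4 or without primed replicate 3. GATA6 (ENSMMUG00000010944), a related factor needed for primitive endoderm, stood at 5.87, 5.92, 7.65 and 0.467 RPKM in dome-shaped replicates 1 to 4, against 1.69, 17.2, 14.3 and 7.07 RPKM in primed replicates 1 to 4. Dome-shaped replicates 1 to 3 were close to each other, while the primed libraries differed 10.1-fold between the lowest and the highest. The log2 difference of GATA6 was -0.83 (SE 0.70, 95% interval -2.40 to 0.74, adjusted p 0.449 by limma).

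Among the streak factors, the organizer homeobox genes LHX1 and GSC had the widest differences between group means, and neither passed the threshold. LHX1 (ENSMMUG00000021668), a LIM homeobox factor of the anterior streak, stood at 0.287, 8.15, 3.86 and 0.320 RPKM in dome-shaped replicates 1 to 4, against 2.88, 25.1, 31.4 and 9.95 RPKM in primed replicates 1 to 4. The groups overlapped through primed replicate 1, which was below dome-shaped replicates 2 and 3. The means were 3.15 ± 3.73 RPKM in dome-shaped and 17.3 ± 13.2 RPKM in primed libraries (SD, n = 4 each). The log2 difference of LHX1 was -2.22 (SE 0.80, 95% interval -4.03 to -0.42, adjusted p 0.0940 by limma). It was -2.83 with an adjusted p of 0.0399 by limma without primed replicate 1, so that 1 library decided on which side of the threshold LHX1 fell; over the libraries left out in turn its adjusted p ran from 0.0399 to 0.208.

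GSC (ENSMMUG00000023066), goosecoid, the homeobox gene that first marked the organizer in frogs, stood at 1.06, 12.02, 4.11 and 0.498 RPKM in dome-shaped replicates 1 to 4, against 2.17, 22.1, 25.7 and 12.4 RPKM in primed replicates 1 to 4. Again primed replicate 1 lay within the range of the dome-shaped libraries, and the other 3 primed libraries lay above all of it. The log2 difference of GSC was -1.75 (SE 0.80, 95% interval -3.56 to 0.06, adjusted p 0.171 by limma).

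The T-box factors and MIXL1 also overlapped between the groups. EOMES (ENSMMUG00000001904), which is needed for definitive endoderm in the mouse, stood at 3.27, 19.3, 22.0 and 8.10 RPKM in dome-shaped replicates 1 to 4, against 8.46, 26.2, 26.4 and 12.1 RPKM in primed replicates 1 to 4. Each group held a pair of high and a pair of low libraries. The log2 difference of EOMES was -0.59 (SE 0.56, 95% interval -1.84 to 0.66, adjusted p 0.503 by limma). MIXL1 (ENSMMUG00000005129), a paired-type homeobox gene of the streak, stood at 3.03, 30.4, 17.2 and 6.35 RPKM in dome-shaped replicates 1 to 4, against 8.38, 33.8, 11.0 and 16.8 RPKM in primed replicates 1 to 4. The second highest of all 8 libraries for MIXL1 was dome-shaped. Its log2 difference was -0.51 (SE 0.63, 95% interval -1.93 to 0.91, adjusted p 0.615 by limma).

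T (ENSMMUG00000017047), brachyury, the factor of streak mesoderm and notochord, stood at 0.857, 1.70, 4.95 and 1.29 RPKM in dome-shaped replicates 1 to 4, against 1.13, 14.5, 3.66 and 6.07 RPKM in primed replicates 1 to 4. Only primed replicates 2 and 4 lay above all dome-shaped libraries. The log2 difference of T was -0.998 (SE 0.58, 95% interval -2.29 to 0.30, adjusted p 0.266 by limma). The 8 factors other than FOXA2 had exact two-sided permutation p-values of 0.114 to 0.714. Their intervals are wide, so a p above the threshold does not show that the groups were alike.

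Counted over the 9 factors, 1 was called lower and 0 were called higher in dome-shaped ESCs by limma at an adjusted p of 0.05. Of all genes tested, 7.96% were called lower and 6.38% higher. Every dome-shaped library lay below every primed library for 1 of the 9 factors, and for 10.7% of all genes tested. With so few factors these shares are near the background. All 9 point estimates were below 0, with a median of -0.83 against 0.03 for all genes tested, but the factors varied together across libraries and are not 9 independent readings. The shared sign depended on single libraries: SOX17 and GATA4 were above 0 without dome-shaped replicate 4, and GATA4 without primed replicate 3.

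**Figure D2:**
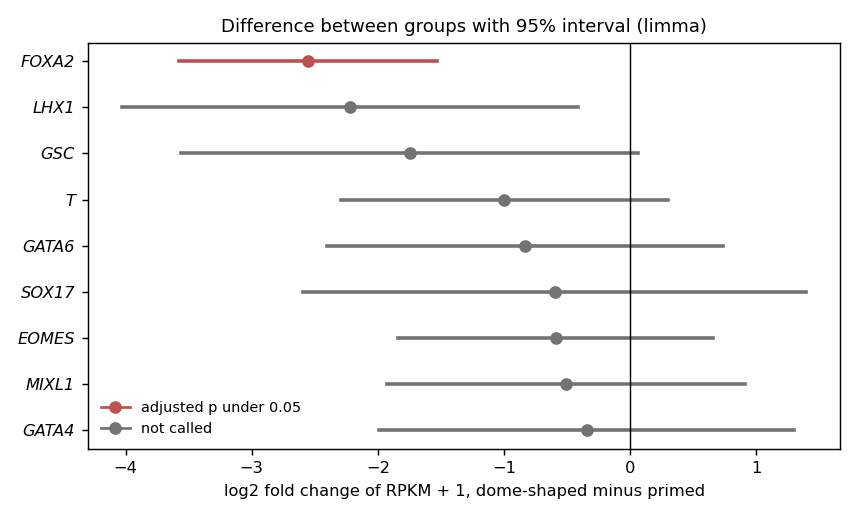
Log2 fold change of RPKM + 1, dome-shaped minus primed, for each of the 9 factors, with its 95% interval from limma; red marks an adjusted p under 0.05. FOXA2 at -2.55 is called, LHX1 at -2.22 is not, and the intervals of the other 7 factors include 0.

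FOXA2 was also set against each other factor within the same library, a comparison chosen after the data were seen, with 8 pairs and unadjusted p-values. The log2 difference between FOXA2 and GATA6 averaged 0.07 in dome-shaped and 1.79 in primed libraries, 1.72 lower in dome-shaped ESCs (difference -1.72, exact permutation p 0.0286). For SOX17, GATA4, EOMES, MIXL1 and T the same contrast was -2.21 to -1.55 with exact permutation p-values of 0.0857 to 0.1143. For GSC it was -0.80 and for LHX1 -0.33, with exact permutation p-values of 0.4571 and 0.6857. The change of FOXA2 was thus not shown to differ from that of any of these 7 factors, and the unadjusted p for GATA6 is 1 of 8.

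The factors differed far more among libraries of the same group than most genes did. Their within-group SD on the log2 scale had a median of 1.21, against 0.21 for all genes tested, and each factor stood between the 97.5th and the 99.8th percentile of all genes tested. Of the variance over the 8 libraries, 77.8% lay between the groups for FOXA2, and 2.4% for GATA4 to 45.6% for LHX1 among the other factors. The same share for all genes tested is not given here, so these values are not read as a trait of the factors. In dome-shaped libraries the highest value of SOX17 was 33.0 times the lowest, and that of LHX1 28.4 times. In primed libraries SOX17 spanned 18.4-fold and FOXA2 1.73-fold. Low levels rested on few reads: the values of dome-shaped replicate 4 correspond to about 22 reads for FOXA2, 12 for GATA6, 11 for SOX17 and 8 for GSC. LHX1 rested on about 9 reads in each of dome-shaped replicates 1 and 4.

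The same libraries were high or low for most of the factors. Primed replicate 2 was among the 3 highest libraries for all 9 and primed replicate 3 for 6. Primed replicate 2 was the highest library for 4 factors and primed replicate 3 for the other 5. Dome-shaped replicate 4 was among the 2 lowest libraries for 8 factors, dome-shaped replicate 1 for 5 and primed replicate 1 for 4. Summed over the 9 factors, RPKM came to 39.9, 95.6, 86.1 and 18.8 in dome-shaped replicates 1 to 4, against 57.5, 203, 178 and 102 in primed replicates 1 to 4. Primed replicate 1 thus held less of these RNAs than dome-shaped replicates 2 and 3. The median deviation of all genes tested from their own mean stayed between -0.04 and 0.03 log2 units in every library, against -2.17 to 1.46 for the 9 factors. RPKM is scaled by depth, so a median over all genes is held nearly level between libraries. This contrast therefore does not set the factors apart from other genes that vary.

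**Figure D3:**
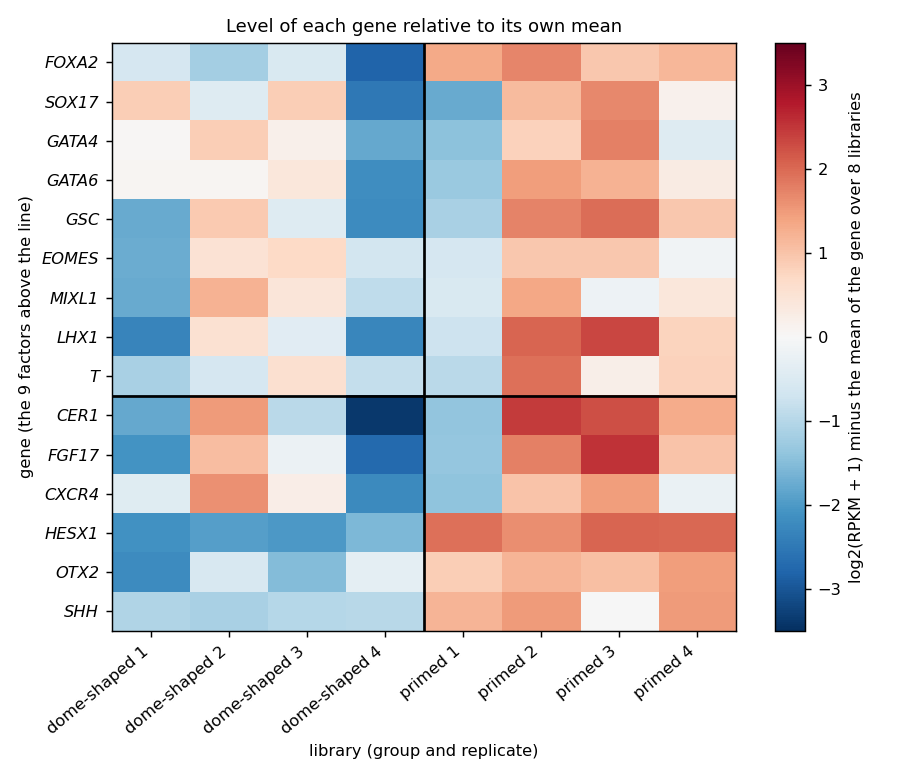
Level of each gene on the log2(RPKM + 1) scale minus its own mean over the 8 libraries, with dome-shaped libraries left of the vertical line; the 9 factors stand above the horizontal line. CER1, FGF17 and CXCR4 follow the library pattern of the factors, with low values in dome-shaped replicate 4 and primed replicate 1. For CER1 and FGF17, dome-shaped replicate 1 is lower than primed replicate 1. CER1, FGF17 and CXCR4 were found by their likeness to a factor over these same libraries, so that they follow the pattern is no separate result. HESX1, OTX2 and SHH are called lower in dome-shaped ESCs.

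Within that shared pattern, some pairs of factors ordered the libraries more alike than others. Over the 8 libraries, which also share their depth and preparation, SOX17 and GATA6 had a Pearson r of 0.945 on the log2 scale, GATA4 and GATA6 0.895, and SOX17 and GATA4 0.862. LHX1 and GSC had an r of 0.981, and EOMES and MIXL1 0.840. Between the endoderm and the streak factors r ran from 0.249 for SOX17 and MIXL1 to 0.828 for GATA6 and GSC, so the classes were not separate. Dome-shaped replicate 1 was the lowest of all libraries for EOMES, MIXL1, LHX1 and T, and the third highest for SOX17. FOXA2 had an r of 0.328 to 0.678 with the other 8 factors, with MIXL1 at the low and LHX1 at the high end.

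In order of mean level, the factors in dome-shaped libraries were MIXL1 at 14.2 RPKM, EOMES at 13.2 RPKM, SOX17 at 8.05 RPKM, FOXA2 at 5.12 RPKM, GATA6 at 4.98 RPKM, GATA4 at 4.81 RPKM, GSC at 4.42 RPKM, LHX1 at 3.15 RPKM and T at 2.198 RPKM. In primed libraries FOXA2 came first at 30.04 RPKM, followed by EOMES at 18.3 RPKM, MIXL1 at 17.5 RPKM, LHX1 at 17.3 RPKM, GSC at 15.6 RPKM, SOX17 at 12.5 RPKM, GATA6 at 10.1 RPKM, GATA4 at 7.50 RPKM and T at 6.34 RPKM. The ranges of neighbours in each order overlapped. FOXA2 was the one factor whose primed libraries stayed within 23.0 to 39.7 RPKM.

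The titles carry a number after the letters CES whose meaning is not given, and the difference between the groups was also read among libraries with the same number. Number 1 had dome-shaped replicates 1 and 2 and primed replicate 1, number 2 had dome-shaped replicate 3 and primed replicate 2, and number 3 had dome-shaped replicate 4 and primed replicates 3 and 4. The titles of dome-shaped replicates 1 and 2 also carry P15 and P26, and these libraries are averaged here. Those of dome-shaped replicate 4 and primed replicate 4 share a 12. The meaning of these marks is not given either. FOXA2 was lower in dome-shaped libraries under each number, by -2.21, -2.22 and -3.85 log2 units for numbers 1, 2 and 3. Under number 1, 6 factors were higher and 3 lower in dome-shaped libraries. Under numbers 2 and 3, all 9 were lower. SOX17 was 1.98 higher under number 1, and -0.25 and -3.42 under numbers 2 and 3. The corresponding log2 differences were 1.88, -0.62 and -2.43 for GATA4 and 1.36, -1.07 and -2.92 for GATA6. Each number holds 1 library in at least 1 group, so these values have no test.

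**Figure D4:**
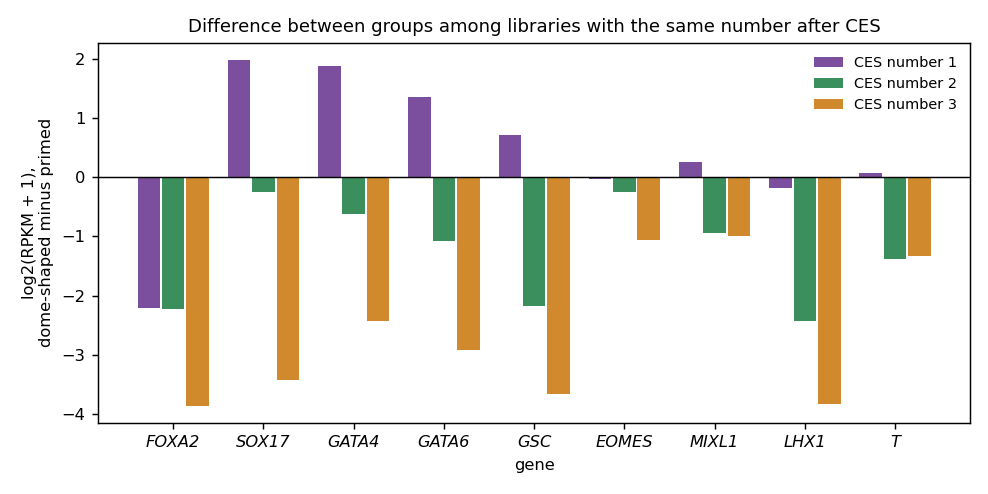
Difference in mean log2(RPKM + 1), dome-shaped minus primed, for each of the 9 factors among libraries that share the number after CES in their titles; each bar rests on 1 or 2 libraries a group. FOXA2 is below 0 for every number, while SOX17, GATA4 and GATA6 are above 0 for number 1 and below 0 for numbers 2 and 3.

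Other genes of the organizer, node and anterior endoderm were described from a list of 18, of which 14 were tested: 6 were lower and 1 was higher in dome-shaped ESCs, with a median log2 difference of -1.25. HESX1, a homeobox repressor of the anterior endoderm and forebrain, fell to 0.909, 1.22, 1.07 and 1.82 RPKM in dome-shaped libraries, against 30.7, 24.8, 33.6 and 32.8 RPKM in primed libraries (log2 difference -3.81, SE 0.16, adjusted p 1.69e-05 by limma). The within-group SD of HESX1 was 0.22 log2 units, against 0.79 to 1.55 for the 9 factors. HESX1 was not typical of this list, whose median was 0.67, and CER1 of the same list had 1.91. A wide spread was thus not particular to the 9 factors. OTX2, a homeobox factor of the epiblast and the anterior head, stood at 8.46 to 33.3 RPKM in dome-shaped and 78.4 to 120 RPKM in primed libraries (log2 difference -2.31, SE 0.37, adjusted p 0.00589 by limma). SHH, the signal of node, notochord and floor plate, stood at 0 to 0.116 RPKM in dome-shaped and 1.16 to 5.18 RPKM in primed libraries (log2 difference -2.08, SE 0.32, adjusted p 0.00516 by limma). FST, a secreted antagonist of activin, rose to 262 to 482 RPKM in dome-shaped libraries, against 111 to 158 RPKM in primed libraries (log2 difference 1.41, SE 0.18, adjusted p 0.00252 by limma). The other called genes were CHRD, FOXJ1 and SFRP1, all lower; SFRP1 lost its call without primed replicate 4, dome-shaped replicate 2 or dome-shaped replicate 3, at adjusted p up to 0.0587 by limma.

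Of 26 other endoderm genes, 16 were tested, 3 were lower and 1 was higher in dome-shaped ESCs, with a median log2 difference of -0.49. KRT19, a keratin of simple epithelia whose name 4 rows shared, stood at 30.1 to 62.0 RPKM in dome-shaped and 83.6 to 129 RPKM in primed libraries (log2 difference -1.24, adjusted p 0.00932 by limma). FOXA3, the paralogue of FOXA2 in gut and liver, stood at 5.59 to 11.0 RPKM in dome-shaped and 14.8 to 16.1 RPKM in primed libraries (log2 difference -0.80, adjusted p 0.0185 by limma), and lost its call without primed replicate 2 or dome-shaped replicate 3, at adjusted p up to 0.0538 by limma. AFP, the fetal albumin-like protein of yolk sac and liver, stood at 0.786 to 2.69 RPKM in dome-shaped and 4.09 to 8.55 RPKM in primed libraries (log2 difference -1.24), and lost its call without primed replicate 4. ONECUT1, a liver and pancreas factor, was higher, with a log2 difference of 1.15, and lost its call in 5 of 8 fits that left out 1 library. SOX7, PDX1, APOA2, APOB and ALB stayed under 1 RPKM in every library. Over fits that left out 1 library the counts ran from 2 to 4 lower, with 2 lower and 1 higher without dome-shaped replicate 3 and 2 lower and 0 higher without primed replicate 2 or 4.

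Of 32 other streak and mesoderm genes, 19 were tested, 5 were lower and 2 higher in dome-shaped ESCs, with a median log2 difference of -0.17. Over fits that left out 1 library the counts ran from 2 to 5 lower, with 2 without primed replicate 2 and 3 without primed replicate 4 or dome-shaped replicate 3. They ran from 1 to 3 higher, with 1 in every such fit but those without primed replicate 4 or dome-shaped replicate 4. Those called moved in opposite directions. SP5, a direct target of WNT signalling, rose to 71.2, 45.8, 84.1 and 27.7 RPKM in dome-shaped libraries, against 1.87, 11.99, 5.70 and 6.03 RPKM in primed libraries (log2 difference 3.05, SE 0.46, adjusted p 0.00491 by limma). CYP26A1, which degrades retinoic acid, stood at 6.14 to 36.8 RPKM in dome-shaped and 48.1 to 104 RPKM in primed libraries (log2 difference -2.39, adjusted p 0.0118 by limma). KDR, a VEGF receptor of early mesoderm, stood at 1.78 to 3.12 RPKM in dome-shaped and 7.21 to 14.7 RPKM in primed libraries (log2 difference -1.81, adjusted p 0.00213 by limma). WNT3, the ligand that starts the streak in the mouse, stood at 0.305 to 0.814 RPKM in dome-shaped and 1.37 to 4.03 RPKM in primed libraries (log2 difference -1.22, adjusted p 0.0163 by limma), and lost its call without primed replicate 2, at an adjusted p of 0.0520 by limma.

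Of 21 genes of the NODAL, WNT and BMP signals that act before the streak factors, 19 were tested, 5 were lower and 2 higher, with a median log2 difference of -0.17. TCF7L2, a transcription factor of the WNT pathway, stood at 20.5 to 24.6 RPKM in dome-shaped and 31.3 to 42.6 RPKM in primed libraries (log2 difference -0.76, adjusted p 0.00399 by limma). TDGF1, the NODAL co-receptor, stood at 21.8, 80.1, 57.0 and 273 RPKM in dome-shaped libraries, against 352, 400, 515 and 317 RPKM in primed libraries (log2 difference -2.41, adjusted p 0.0313 by limma). Dome-shaped replicate 4, among the 2 lowest libraries for 8 of the 9 factors, was close to the primed libraries for TDGF1. The call of TDGF1 was lost in 6 of 8 fits without 1 library. BMP4, a ligand of posterior streak and extraembryonic tissue, stood at 5.21 to 16.7 RPKM in dome-shaped and 14.1 to 58.6 RPKM in primed libraries, and lost its call in 5 of 8 such fits. The counts of this list ran from 1 to 5 lower and from 0 to 3 higher over those fits, with 5 lower only without primed replicate 1 or dome-shaped replicate 4.

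Of 22 other genes of primitive and visceral endoderm, 18 were tested, 2 were higher and 0 lower, with a median log2 difference of 0.48. LAMA1, a laminin chain of the basement membrane that primitive endoderm lays down, stood at 15.4 to 25.8 RPKM in dome-shaped and 10.0 to 11.1 RPKM in primed libraries (log2 difference 0.77, adjusted p 0.0122 by limma). COL4A2, a collagen IV chain, was also higher, with a log2 difference of 0.60, and lost its call in 7 of 8 fits that left out 1 library. Without dome-shaped replicate 4, 6 genes of the list were higher and 1 was lower. The other fits gave 3 higher without primed replicate 1 and 1 higher without each other library. In the fit without dome-shaped replicate 1, 1 gene was also lower. Of 37 relatives of the factors by gene family, 34 had a row and 8 were tested; FOXA3 and SSBP3, a cofactor of LIM homeobox proteins, were lower. SSBP3 lost its call in 4 of 8 fits without 1 library, and 0 relatives were called without primed replicate 2 or dome-shaped replicate 3. LHX3 was listed at 0 in every library, and 18 relatives stayed under 1 RPKM in all of them.

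Markers of cell types that such cultures could hold were read beside these results, as the sum of the RPKM of each list. The pluripotent list of 10, of which POU5F1 was paired with no row, summed to 1904 to 2923 RPKM in dome-shaped and 2926 to 3516 RPKM in primed libraries. In it 5 of 9 tested genes were lower, and 1 to 6 over the fits that left out 1 library. Floor plate markers summed to 4.20 to 12.4 RPKM in dome-shaped and 6.47 to 13.9 RPKM in primed libraries; 3 of 9 were tested, SHH was lower, and NKX6-1, NKX2-2 and FERD3L stayed under 1 RPKM everywhere. Hepatocyte and yolk sac markers summed to 8.74 to 46.1 RPKM in dome-shaped and 15.2 to 34.5 RPKM in primed libraries, with 9 of 12 under 1 RPKM everywhere and AFP lower.

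Germ cell markers summed to 12.4 to 23.4 RPKM in dome-shaped and 15.8 to 39.9 RPKM in primed libraries; 3 were tested and 0 were called, and NANOS2 was listed at 0 in every library. Cardiac markers summed to 6.69 to 8.28 RPKM in dome-shaped and 10.6 to 17.2 RPKM in primed libraries, and TNNT2 was the 1 called lower of 2 tested. TNNT2 carried most of the primed sum, at 8.41 to 14.97 RPKM. TNNI1, which was not tested, and ACTN2, which was not called, went the other way. Every dome-shaped library lay above every primed library for both. The other 7 of the 10 stayed under 1 RPKM everywhere. Trophoblast markers summed to 12.02 to 19.1 RPKM in dome-shaped and 28.9 to 115 RPKM in primed libraries, with KRT7 and HAND1 lower of 5 tested. HAND1 lost its call in 4 of 8 fits without 1 library. Endothelial markers summed to 22.1 to 33.1 RPKM in dome-shaped and 17.7 to 23.5 RPKM in primed libraries, with TEK higher and KDR lower of 4 tested. Fibroblast markers summed to 586 to 910 RPKM in dome-shaped and 328 to 1332 RPKM in primed libraries, and neural ectoderm markers to 302 to 430 RPKM in dome-shaped and 216 to 434 RPKM in primed libraries. Of these, ACTA2, FABP7 and GBX2 were higher and COL1A2 and PDGFRB lower; ACTA2, COL1A2 and PDGFRB each lost the call in 5 or more of 8 fits without 1 library. Single genes carried much of several sums, so the sums are not levels of cell types. NES stood at 220 to 324 RPKM in dome-shaped and 201 to 422 RPKM in primed libraries. TAGLN, of the fibroblast list, stood at 422 to 692 and 212 to 1063 RPKM. APOA1, of the hepatocyte and yolk sac list, stood at 5.57 to 43.9 and 8.055 to 21.7 RPKM. TFAP2A, of the trophoblast list, reached 52.8 RPKM in primed replicate 4. The part of these cell types in the levels of the 9 factors was not tested.

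The genes whose levels most resembled each factor were sought among 6534 named genes with a mean of at least 5 RPKM, by Pearson r of the log2 values over the 8 libraries, as a description. FGF17, a fibroblast growth factor, had an r of 0.995 with GSC and 0.978 with LHX1. FGF17 stood at 1.51, 21.8, 8.34 and 0.639 RPKM in dome-shaped libraries, against 3.19, 35.6, 61.6 and 20.5 RPKM in primed libraries. CER1, a secreted antagonist of NODAL, BMP and WNT, had an r of 0.987 with GSC and stood at 12.7, 132, 23.8 and 3.54 RPKM in dome-shaped libraries, against 17.1, 259, 223 and 116 RPKM in primed libraries. Neither gene was called, at an adjusted p of 0.201 for FGF17 and 0.178 for CER1 by limma.

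CXCR4, a chemokine receptor used to sort endoderm cells, had an r of 0.957 with GATA4. It stood at 7.09, 32.0, 11.7 and 1.30 RPKM in dome-shaped libraries, against 3.12, 20.7, 29.2 and 8.31 RPKM in primed libraries, and was not called (adjusted p 0.763 by limma). ATXN7, a subunit of the SAGA coactivator, ranked first for SOX17 with an r of 0.976 and for GATA6 with an r of 0.943, at 5.15 to 6.21 RPKM in dome-shaped and 5.24 to 6.84 RPKM in primed libraries. RXRA, a retinoid X receptor, had an r of 0.967 with SOX17 and 0.928 with GATA6, at 10.8 to 15.3 RPKM in dome-shaped and 11.6 to 15.3 RPKM in primed libraries. EPHB3, a receptor of ephrins, had an r of 0.973 with SOX17 and 0.924 with GATA6, at 3.32 to 10.5 RPKM in dome-shaped and 5.63 to 14.7 RPKM in primed libraries. HAS2, a hyaluronan synthase, had an r of 0.970 with LHX1, at 16.7 to 44.2 RPKM in dome-shaped and 25.0 to 122.7 RPKM in primed libraries.

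For FOXA2, SOX17, GATA6, EOMES, MIXL1 and T the most similar gene was in none of the lists above. HOMEZ, a homeobox gene, had an r of 0.982 with FOXA2, at 13.7 to 19.2 RPKM in dome-shaped and 21.9 to 24.8 RPKM in primed libraries. CTCF, which organizes chromatin loops, had an r of 0.970 with EOMES, at 70.9 to 102 RPKM in dome-shaped and 79.4 to 99.0 RPKM in primed libraries. CAMSAP1, a microtubule protein, had an r of 0.949 with MIXL1, at 31.9 to 39.5 RPKM in dome-shaped and 35.9 to 39.7 RPKM in primed libraries. AP3B2, a vesicle coat subunit, had an r of 0.947 with T, at 4.24 to 14.9 RPKM in dome-shaped and 6.94 to 28.0 RPKM in primed libraries. An r over 8 libraries reads only the order and spacing of the libraries, not the size of the changes. The genes named for likeness here and above were picked for the highest r among 6534 genes. No test was run, so they are not shown to vary with a factor beyond what such a search finds by chance.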

How the data were processed

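The authors deposited 1 table of RPKM values per gene and library, with a query length and protein matches. HTSeq 0.6.1, TopHat2 2.0.9 and Bowtie2 2.0.6 are listed, without their roles, in the submitters' processing notes. Build, annotation and strand setting were not given in the sources used here. Of 33138 rows 17 were blank and left out. Columns of dome-shaped replicates 1 to 3 lacked the end of their titles and were matched by their start; for replicate 3 the other title with that start had a column of its own. Columns of other samples numbered 0.

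Gene names came from the table, from RefSeq accessions of protein matches looked up in assembly T2T-MFA8v1.1, or from the name of the matched protein (at least 85% identity); 52.8% of the genes tested had a name, and 195 of 208 list genes had a row. In that assembly 1 annotated gene overlapped GATA6 and 2 overlapped LHX1, and reads shared with them cannot be told apart.

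Depth was read from the steps of RPKM times query length: among values below 50 reads, 71.6% to 73.5% came within 0.01 of a whole number, so read numbers given for single genes are approximate. For GATA4, LHX1 and T, 0 of the read numbers came within 0.01 of a whole number. Replicates had pairwise r of 0.959 to 0.987 among dome-shaped and 0.965 to 0.988 among primed libraries, and none were identical. Replicate numbers follow accession order.

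Genes that reached 1 RPKM in 4 or more of the 8 libraries were compared on log2(RPKM + 1) with limma 3.58.1 in R 4.3.3 (trended eBayes, no covariates). P-values were two-sided, adjusted by Benjamini-Hochberg over 15597 genes, and called at 0.05. This scale understates changes of low genes. The script was tested on simulated data. Single factors were also compared by an exact permutation test over 70 relabellings. The 9 factors and the gene lists were chosen with earlier results of these data known. Named genes were the 9 factors, up to 4 called genes of smallest adjusted p per list, and the 3 most similar genes per factor. CHRD, FOXJ1, SFRP1, NES, TAGLN, APOA1, TFAP2A, TNNI1 and ACTN2 fall outside this rule and were chosen after their values were seen. Alternatives were other pseudocounts, filters, scalings, variance models and library weights, the number after CES as a block, and leaving out each library; counts per list without each library were added after the data were seen. Intervals cover the spread between libraries. Some genes of the lists are not reported here.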

Additional observations from a re-analysis of the deposited data

Results flagged for a closer look

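GATA6 in dome-shaped libraries had 1 library far from the other 3: dome-shaped replicate 4 stood at 0.467 RPKM, and on the log2(RPKM + 1) scale its gap to the nearest library was 0.870 of the range of the group, above Dixon's critical value at the 95% level for 4 samples. On the RPKM scale the same ratio was 0.752, below that value. This was looked for in 18 groups of libraries, the 9 factors in each group, and chance flags about 1 in 20. Without that library the log2 difference of GATA6 was -0.25, against -0.83 with it.

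SOX17, GATA4 and GATA6 differed in direction by the number after CES. Every dome-shaped library of number 1 lay above the primed library of that number, by a mean log2 difference of 1.98 for SOX17, 1.88 for GATA4 and 1.36 for GATA6, while under numbers 2 and 3 every dome-shaped library lay below the primed ones. The difference between the numbers was not tested, and number 1 has primed replicate 1 as its only primed library, which was the lowest primed library for all of the 9 factors but FOXA2.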

How the results depend on the processing

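FOXA2 was called lower under all 17 alternatives, with a log2 difference of -2.90 to -2.04 and an adjusted p of 0.000726 to 0.0304 by limma. LHX1 was the only other factor called under any alternative: with array weights (-2.12, adjusted p 0.0260 by limma) and without primed replicate 1. The number of factors called lower was therefore 2 under array weights and ran from 1 to 2 over the libraries left out in turn, and none was called higher under any alternative. GATA4 turned to 0.19 without primed replicate 3 and to 0.19 without dome-shaped replicate 4, and SOX17 to 0.13 without dome-shaped replicate 4 (ranges -0.88 to 0.19 and -1.29 to 0.13 over the libraries left out), none of them called. The cause was not tested.

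Over all genes, 1242 were lower and 995 higher. With array weights these became 2722 and 2669, and with a replicate block made of the CES number 593 and 303. Leaving out each library in turn gave 655 to 1441 lower and 381 to 1289 higher, with fewer libraries in each fit. Deviations from the group mean had r of -0.10 to 0.13 between same-numbered libraries and -0.22 to 0.20 between libraries of different numbers. These values cannot show whether the number marks a shared origin, since its meaning is not given. Under the block made of the CES number FOXA2 was -2.81 (adjusted p 0.00949 by limma) and no other factor was called. FOXA3, AFP, WNT3, ONECUT1, COL4A2, TDGF1, BMP4, SSBP3, HAND1, ACTA2, COL1A2, DPPA4 and PRDM14 lost their calls under it. T fell below the filter of a mean of 5 RPKM and has no value there. All 9 factors passed the main filter, so the test planned for factors below it had nothing to run on. Depth limits the lowest values. Those of FOXA2, SOX17, GATA4, GATA6, GSC and LHX1 rest on about 8 to 22 reads. Those of T, MIXL1 and EOMES rest on about 32, 34 and 125 reads.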
